A study of Mus musculus with 12 samples.

Results

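Gene expression in unstimulated ventricular muscle cells of the adult mouse heart was read from 3 Affymetrix arrays, those of wild type mice without isoprenaline, out of 12 arrays in the series. The cells were ventricular myocytes of adult animals, freed from the heart with enzymes through Langendorff perfusion, in which digestion solution is pushed backwards through the aorta and the coronary vessels. They were kept for 24 h without the drug, and total RNA was taken up in Trizol and labelled as biotinylated cRNA. The animals were the wild type counterparts of mice that lack CaMKIIδ and CaMKIIγ, and each array came from a different mouse (numbers 4, 5 and 6), so the spread between arrays includes the differences between animals. The sources used here name no sex or strain. No freshly isolated cells were analysed here, so the values describe cells after isolation and culture, not the intact ventricle. The other 9 arrays, from the knockout mice or with isoprenaline, were not used.

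All 24704 named genes were ranked by their mean log2 signal over the 3 arrays, 1 probe set per gene. An array always gives some signal, so a border between signal and background was needed. It was set at 3.36, the 95th percentile of 1403 genes of the olfactory, vomeronasal and taste receptor families, which heart cells are not known to express as a class. The 1236 genes in the top 5% of the ranking, at 8.29 or more, were called high. The 10571 genes between the border and that level, 42.8% of all, were called middling. The remaining 12897 genes, 52.2% of all, lay at or below the border and were called near background. Thus 47.8% of named genes had a mean above the border. A probe set's brightness depends on its probes as well as on its transcript, so an order between genes is an order of signal and not of mRNA amount. For the same reason, near background means that this probe set read like a receptor gene, not that the gene was silent. Array numbers 1 to 3 are those of the biological replicates in the labels.

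The muscle cell of the ventricle contracts when calcium entering through L-type channels opens ryanodine receptors of the sarcoplasmic reticulum. The released calcium binds troponin C, which lets myosin heads of the thick filament pull on actin of the thin filament, until the pump SERCA2 returns the calcium to its store. The work is paid for by mitochondria that burn mainly fatty acids, and the adult cell keeps isoforms of the contractile proteins that differ from those of the fetal heart, the atrium and skeletal muscle. Isolated adult myocytes in culture are known to lose some of this specialisation with time. Enzymatic isolation also leaves a small number of other heart cells in the preparation. In a bulk sample, fewer cells of a type and less RNA per cell cannot be told apart.

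**Figure D1:**
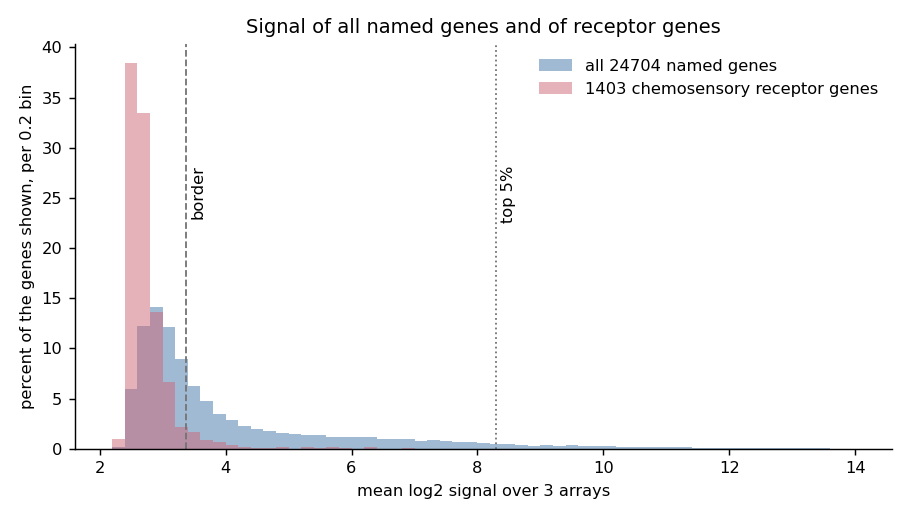
The x axis gives the mean log2 signal over the 3 arrays and the y axis the percent of genes in each 0.2-wide bin, for all 24704 named genes (blue) and the 1403 receptor genes (red). The dashed line is the border at 3.36 and the dotted line the top 5% at 8.29; the receptor genes peak to the left of the border and the named genes have a long tail to the right of it.

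The receptor genes had a median of 2.65, and 71 of them lay above the border by construction, none in the high class. The brightest, Olfr1034, read 6.76, 7.10 and 7.08 on arrays 1, 2 and 3. Genes next to the limits show how narrow they are. Cpsf3 was the named gene just inside the high class at 8.29 ± 0.13 (SD, n = 3) and Slc38a3 the next below it, also at 8.29 ± 0.13. Gprc5c, at 3.36 ± 0.10, was just above the border, and Calm4, at 3.36 ± 0.11, just below it. A second yardstick came from 41 measured markers of liver, brain, pancreas, gut and germ cells. None was high, but 14 of them lay above the border, against 47.8% of all named genes. The brightest, in the liver list, was at 5.72. In the brain list it was Camk2a at 5.66, a gene also counted below among the CaMKII forms. A signal above the border was thus also seen for genes listed for other tissues.

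Sequences just before the transcription start are shown for 5 abundant genes, to put letters beside the motif counts that follow. Nppa, Nppb and Myl2 were taken as well-known genes of heart muscle, though not all of them are restricted to it. Atp5md and Ndufa12 are the brightest 2 genes with GGGCGG, a GC box motif, in these 80 bases, so they were picked for the motif and do not stand for respiratory chain genes as a class. Each is the 80 bases before the RefSeq start (GRCm38.p6), 5′ to 3′ on the gene's strand, with TATAAA or GGGCGG in capitals. Nppa, atrial natriuretic peptide, lies on chromosome 4 (chr4:148000642-148000721, plus strand), and Nppb, B-type natriuretic peptide, next to it (chr4:147985820-147985899, plus strand). Atp5md, a small ATP synthase subunit, lies on chromosome 19 (chr19:47090648-47090727, minus strand), Ndufa12, a subunit of complex I, on chromosome 10 (chr10:94198955-94199034, plus strand), and Myl2, the ventricular regulatory myosin light chain, on chromosome 5 (chr5:122092644-122092723, plus strand). The Myl2 stretch holds neither motif and has no capitals.
Nppa: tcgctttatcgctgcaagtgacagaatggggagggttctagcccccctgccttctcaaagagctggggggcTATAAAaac
Nppb: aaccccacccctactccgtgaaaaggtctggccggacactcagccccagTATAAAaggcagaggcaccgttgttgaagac
Myl2: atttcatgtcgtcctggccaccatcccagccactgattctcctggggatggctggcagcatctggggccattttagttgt
Atp5md: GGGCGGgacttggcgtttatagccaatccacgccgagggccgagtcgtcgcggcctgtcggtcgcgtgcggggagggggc
Ndufa12: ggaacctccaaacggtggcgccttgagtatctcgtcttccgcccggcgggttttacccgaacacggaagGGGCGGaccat

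The motif TATAAA began 9 bases before the annotated start of Nppa and 31 bases before that of Nppb. It was searched in RefSeq promoter windows, which run from 250 bases before to 50 bases after the start, on the gene's strand and on either strand, taking the first window listed for each gene. Of the 18379 named genes with a window, 8.28% held it on the gene's strand and 12.8% on either strand. The share on the gene's strand was 6.52% of 920 genes of the high class, 4.91% of 8181 middling genes and 11.4% of 9278 genes near background. GGGCGG was held on the gene's strand by 29.9% of all named genes with a window. Its shares were 42.9% in the high class, 40.9% in the middling class and 18.9% near background, and on either strand 62.8%, 62.3% and 29.6%. Among protein-coding genes near background with the receptor genes left out, 23.7% of 6220 held GGGCGG on that strand and 10.5% held TATAAA. Of 19 oxidative phosphorylation genes with a window, 4 held GGGCGG on the gene's strand (21.1%), a smaller share than in the high class, and 2 held TATAAA. Among the 12 ventricular marker genes, 2 held GGGCGG on that strand and 3 held TATAAA (Myh6, Actc1 and Pln). In Myh6 and Actc1 the match lay after the annotated start, and a match of letters is not a binding site.

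The very top of the ranking held many genes of contractile proteins and mitochondria. Of the 30 brightest genes, 10 are respiratory chain or ATP synthase subunits and 6 belong to the sarcomere lists. Cox4i1, a nuclear-encoded subunit of cytochrome oxidase, read 13.58, 13.67 and 13.67 on arrays 1, 2 and 3. Myl2, the ventricular regulatory myosin light chain, read 13.55, 13.60 and 13.60. Also among the 30 were Tnnc1 and Tnnt2 (troponins C and T), Actc1 (cardiac actin), Tnni3 (troponin I), Myl3 (the ventricular essential light chain), Mb (myoglobin, the oxygen store), Ndufs6, Ndufa1, Ndufa5 and Ndufa12 (complex I), Uqcrq (complex III), Cox8b and Cox7a1 (muscle-type cytochrome oxidase subunits), Atp5md and Atp5b (ATP synthase), Mdh1 (cytosolic malate dehydrogenase), Ech1 (a fatty acid oxidation enzyme), Cst3 (the protease inhibitor cystatin C) Anapc13 (a subunit of the anaphase-promoting complex), and Rplp1 and Rps21 (proteins of the cytosolic ribosome). The 30 lay between 13.06 and 13.83 with a median SD of 0.047. However, 7 of them are annotated as pseudogenes (Rn18s-rs5, Cox5b-ps, Fabp3-ps1 and 4 predicted genes), a point taken up with the housekeeping genes.

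The arrays had been scaled to 1 shared set of values, so a gene at the same rank on all 3 reads the same to the last digit. This was the case for 3 named genes, all high: Cox7a1 at 13.32, Atp2a2 at 12.80 and a predicted pseudogene at 13.83, the highest value of every array. An SD of 0 or near 0 at the top is therefore a property of ranks under this scaling and not the full measurement error.

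**Figure D2:**
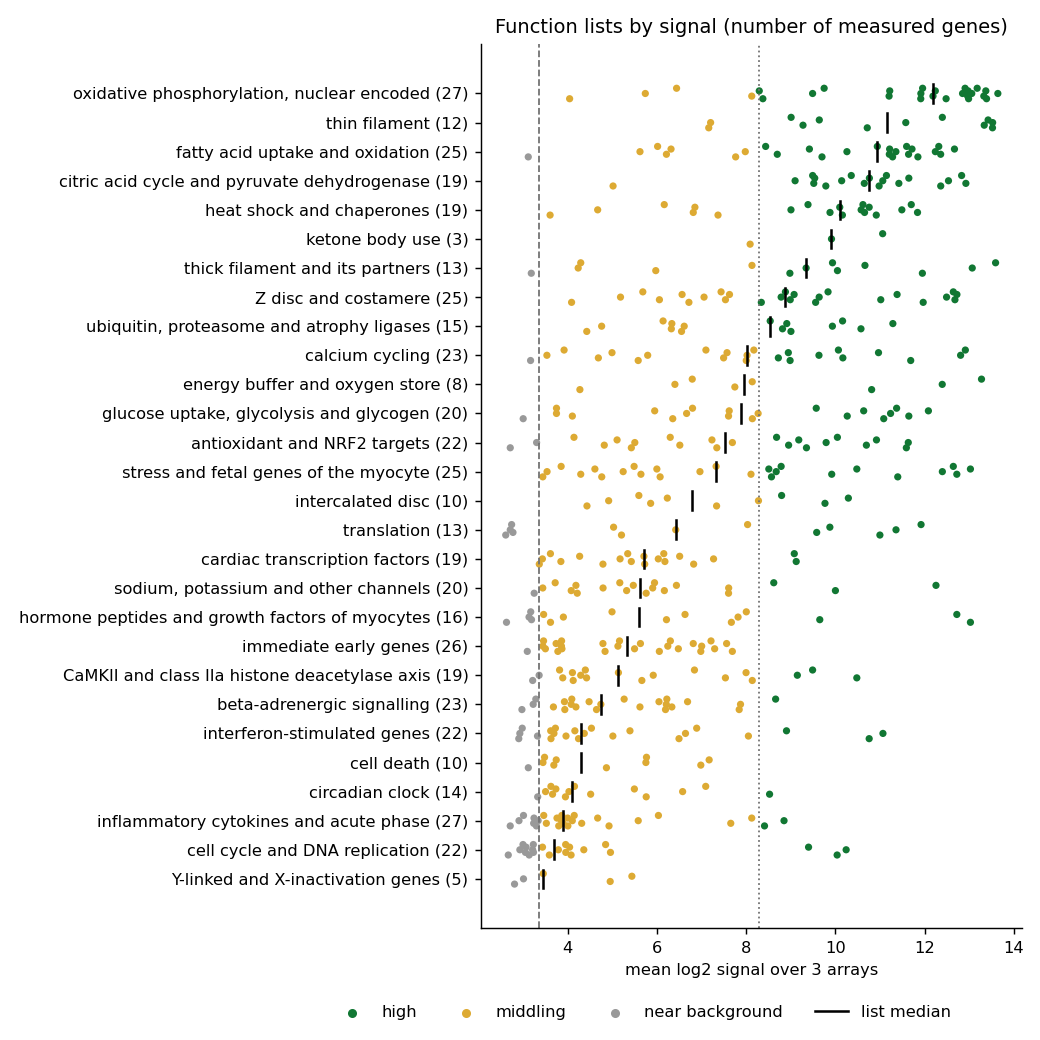
Each row is a function list with the number of its measured genes, each point a gene at its mean log2 signal over the 3 arrays (x axis), coloured by class, and the black bar is the list's median. The lists of oxidative phosphorylation, thin filament, fatty acid oxidation and the citric acid cycle have medians right of the dotted line (top 5%, 8.29), and those of cytokines, cell cycle and clock genes lie near the dashed border (3.36).

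The thick filament is built from myosin and the proteins that hold it in register. Of 13 measured genes of this list, 8 were high, 4 middling and 1 near background, with a median percentile of 97.1 among all named genes, where 5% are high. Myh6, the fast adult alpha myosin heavy chain, read 11.86, 11.99 and 11.99. Its slow counterpart Myh7, the beta chain that dominates before birth, read 4.31, 4.60 and 3.97. Myh6 was thus high on every array, while Myh7 stayed in the lower part of the middling class, at a mean of 4.30 ± 0.32 (SD, n = 3). Myh7b was alike at 4.24 ± 0.10, and Myom3, a myomesin of slow muscle, was near background at 3.19 ± 0.06.

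In the thin filament, where troponin and tropomyosin gate the access of myosin to actin, 10 of 12 genes were high, 2 middling and none near background. Tnnc1, Actc1 and Tnnt2 had means of 13.52, 13.52 and 13.42, with SDs of 0.05 or less. Acta1, skeletal actin, which is known to be re-expressed in stressed myocytes, read 12.48, 12.42 and 12.28 and ranked 83. The lowest members were Nebl, a nebulin-like anchor of actin (9.01 ± 0.14), Tpm1, the cardiac tropomyosin (7.20 ± 0.15), and Lmod3, an actin nucleator (7.16 ± 0.18).

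At the Z disc and the costamere, which tie sarcomeres to each other and to the cell surface, 15 of 25 genes were high, 10 middling and none near background. The brightest were Csrp3 (muscle LIM protein, 12.72 ± 0.05), Cryab (the chaperone alpha B crystallin, 12.68 ± 0.08) and Ankrd1 (a stretch-responsive ankyrin repeat protein, 12.64 ± 0.14). The lowest were Bag3, a co-chaperone (5.69 ± 0.12), Lama2, a laminin chain (5.19 ± 0.13), and Myoz1, the myozenin of fast skeletal muscle (4.09 ± 0.34). The intercalated disc couples neighbouring myocytes, and 3 of its 10 genes were high. These were Dsp (desmoplakin, 10.29 ± 0.10), Cdh2 (N-cadherin, 9.77 ± 0.14) and Gja1 (connexin 43, 8.79 ± 0.09). The other 7 were middling, down to Dsc2, a desmosomal cadherin, at 4.44 ± 0.14.

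Of 23 calcium cycling genes, 10 were high, 12 middling and 1 near background. S100a1, a calcium-binding partner of SERCA2 and the ryanodine receptor, had a mean of 12.91 ± 0.01. Atp2a2, which encodes SERCA2, read 12.80 on all 3 arrays, and Hrc, a calcium-binding protein of the store lumen, 11.69 ± 0.03. Ryr2, the release channel, read 9.98, 10.17 and 10.04, and Pln, the brake on SERCA2, read 9.47, 9.59 and 9.84. Both were high on every array. The L-type channel pore Cacna1c (7.89, 8.03 and 8.09) and the sodium-calcium exchanger Slc8a1 (7.50 ± 0.14) were in the upper middling range. Itpr2, the main inositol trisphosphate receptor of myocytes (3.92 ± 0.14), and Stim1, the store sensor (3.54 ± 0.09), were little above the border. Fkbp1b, which binds the ryanodine receptor, was near background at 3.17 ± 0.07.

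Ion channels and pumps of the surface membrane were mostly middling, with 3 of 20 high, 16 middling and 1 near background. The high ones were Fxyd1, phospholemman (12.25 ± 0.12), Atp1b1, the beta chain of the sodium pump (rank 490, SD 0.018), and Abcc9, the sulphonylurea receptor SUR2 of the ATP-sensitive potassium channel (8.62 ± 0.19). At the low end stood Kcna5, a delayed rectifier (3.72 ± 0.11), Scn4b, a sodium channel beta subunit (3.45 ± 0.03), and the pacemaker channel Hcn4 (3.25 ± 0.11). Over all 94 named Kcn genes, 30 lay above the border and none was high, against 47.8% and 5% of all named genes. The chosen list thus does not stand for potassium channel genes as a family.

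The beta-adrenergic pathway, which the study went on to stimulate, raises cyclic AMP through Gs and adenylyl cyclase and activates protein kinase A. At rest, 1 of its 23 measured genes was high, 19 were middling and 3 near background. Prkaca, the catalytic subunit of protein kinase A, was the high one at 8.66 ± 0.06, followed by Prkar1a, its regulatory subunit (7.87 ± 0.06), and Gnai2, an inhibitory G protein (7.84 ± 0.21). The cyclases Adcy5 and Adcy6, the main forms of the heart, were both middling and overlapped between arrays. Adcy5 read 6.54, 6.63 and 5.84, and Adcy6 6.16, 6.51 and 5.97, so both were lowest on array 3. Gnas, the gene of Gs alpha, was near background at 3.23 ± 0.05, as were the cyclic AMP-responsive factor Crem (3.29 ± 0.07) and Prkar2b (2.98 ± 0.14). The beta-adrenergic receptor genes themselves were not analysed here.

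CaMKII is the calcium- and calmodulin-dependent kinase whose delta and gamma forms the knockout animals of the series lack. In the wild type cells Camk2d read 7.94, 8.09 and 7.96 and Camk2g 4.78, 5.23 and 5.41. Both were above the border on every array and both middling, at percentiles of 94.2 and 79.5. The neuronal forms were also middling, Camk2a at 5.66 ± 0.29 and Camk2b at 4.11 ± 0.27. In the wider list, with the class IIa histone deacetylases and MEF2 factors that CaMKII is known to act on, 3 of 19 were high, 14 middling and 2 near background. The high ones were Rcan1, a calcineurin inhibitor (10.48 ± 0.18), Mef2a (9.49 ± 0.02) and Camk1 (9.15 ± 0.19). Mef2b was low at 3.82 ± 0.14. Prkd1 and Camk4, 2 other kinases of this axis, had arrays on both sides of the border.

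Transcription factors gave moderate signals. Of 19 cardiac factors, 2 were high and 17 middling. Tead1, a Hippo pathway factor of muscle, had 9.12 ± 0.17, Ppargc1a, the coactivator of mitochondrial genes, 9.08 ± 0.12, and Myocd, the coactivator of serum response factor, 7.27 ± 0.12. Irx4, a ventricular homeobox factor, stood at 3.62 ± 0.16, Hand1 at 3.44 ± 0.03 and Esrrb at 3.37 ± 0.15, the last with arrays on both sides of the border.

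Both natriuretic peptide genes, whose promoters are shown above, were among the brightest of all. Nppb read 13.00, 13.10 and 12.97 and ranked 34. Nppa read 13.02, 12.82 and 12.32 and ranked 51. Nppb was nearly level across the mice, while Nppa was lowest on array 3, with an SD of 0.36 against a median of 0.11 for high genes. The third family member, Nppc, was middling at 3.62 ± 0.15. Of 16 hormone and growth factor genes, 3 were high, 9 middling and 4 near background. Vegfa, the vascular growth factor, was the other high gene at 9.65 ± 0.18. Nrg1 (3.18 ± 0.20), Fgf16 (3.14 ± 0.25) and Mstn, myostatin (2.63 ± 0.03), were near background, and Igf1 had arrays on both sides of the border.

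The list of stress and fetal genes had 11 of 25 members high, 14 middling and none near background. Next to Nppb, Nppa, Ankrd1 and Acta1 it holds genes of cytoskeletal remodelling. Its lowest members were Nes, nestin (3.86 ± 0.07), Flna, filamin A (3.54 ± 0.06), and Runx1, a factor of dedifferentiating myocytes (3.45 ± 0.20), which had arrays on both sides of the border. Myh7, the classical fetal gene of this list, was also among its dimmer members, so the list did not share a level. Without freshly isolated cells, no part of these levels can be assigned to culture.

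The function lists with the largest shares of high genes were those of the citric acid cycle and oxidative phosphorylation. Of 27 nuclear-encoded genes of oxidative phosphorylation, 23 were high and 4 middling, with a median percentile of 99.6. All named genes of the families were then counted by symbol, a count added after the data had been seen. Of 35 complex I genes (Nduf), 29 were high, 5 middling and 1 near background. All 7 complex III genes (Uqcr), 9 of 17 cytochrome oxidase genes (Cox4 to Cox8) and 9 of 13 ATP synthase genes (Atp5) were high. The mitochondrial ribosome followed, with 41 of 76 high. Subunits encoded by mitochondrial DNA were not analysed here.

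The citric acid cycle and pyruvate dehydrogenase had 18 of 19 genes high, led by Sdhb (succinate dehydrogenase, 12.92 ± 0.02), Mdh2 (malate dehydrogenase, 12.83 ± 0.07) and Idh3b (isocitrate dehydrogenase, 12.53 ± 0.13). The exception was Mpc1, a subunit of the mitochondrial pyruvate carrier, at 5.02 ± 0.29. Fatty acid uptake and oxidation had 18 of 25 high, 6 middling and 1 near background. Etfb and Etfa, which carry electrons from fatty acid oxidation to the respiratory chain, had 12.67 ± 0.02 and 12.36 ± 0.14, and Acadl, long-chain acyl-CoA dehydrogenase, 12.31 ± 0.07. Slc27a1, a fatty acid transporter (6.02 ± 0.14), Plin5, a lipid droplet protein (5.62 ± 0.21), and Ucp3, an uncoupling protein (3.12 ± 0.14), were the lowest. For ketone bodies, Oxct1, the enzyme that activates them, was high at 11.06 ± 0.04.

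Glucose use was less even, with 8 of 20 genes high, 11 middling and 1 near background. The brightest included Eno3 (muscle enolase, 12.08 ± 0.11), Tpi1 (the general triosephosphate isomerase, 11.64 ± 0.15) and Pygm (muscle glycogen phosphorylase, 11.37 ± 0.05). The glucose transporters Slc2a4, insulin-responsive GLUT4, and Slc2a1, GLUT1, overlapped. Slc2a4 read 7.46, 7.73 and 7.67 and Slc2a1 7.80, 7.53 and 7.48. In the creatine kinase system, Ckmt2, the mitochondrial form, and Ckm, the muscle form, were high at 12.39 ± 0.04 and 10.81 ± 0.04.

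Genes that every cell uses were spread over all 3 classes. Rplp1, a ribosomal protein, was high at 13.54 ± 0.04 and ranked 6, and Rps21 was high at 13.10 ± 0.07 and ranked 27. A set of 16 widely expressed genes, picked after values were seen and so no sample of such genes, had 8 middling, 8 near background and none high. Of its middling genes, Rplp0, a ribosomal protein, had 5.21 ± 0.23, Naca, a chaperone of new proteins, 5.03 ± 0.11 and Prdx1, a peroxide-removing enzyme, 4.14 ± 0.40. Gapdh, a glycolytic enzyme often taken as a reference gene, read 2.87, 2.89 and 3.26 and was near background on every array. Eef1a1, the general translation elongation factor, read 2.87, 2.80 and 2.57, while Eef1a2, its form in muscle and nerve, read 9.88, 9.81 and 9.93. Actb, beta actin, had 3.63 ± 0.17 and stood just above the border. Rpl3 (2.78 ± 0.17), Tpt1 (2.72 ± 0.02) and Eif4a1 (2.62 ± 0.24) were the other genes near background of the 13 measured in the translation list, while Rpl4 (11.92 ± 0.06) and Eef1b2 (11.36 ± 0.12) were high. Ftl1, ferritin light chain, was near background at 2.72 ± 0.14. These genes are known to be abundant in nearly all cells, so a class near background cannot be read as absence of the transcript.

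Pseudogenes were also found in every class. Of 509 genes annotated as pseudogenes, 20.4% were in the high class, against 5.51% of 19686 protein-coding genes. Of the 327 annotated as transcribed pseudogenes, 3.67% were high and 73.7% near background. RefSeq names some pseudogenes after their parent gene. Of 198 measured genes so named, 29 were high, and for 19 of these the parent gene was measured too, 17 parents in all. Of these 17 parents, 1 was high (Tmed10), 10 were middling and 6 near background. Of all named genes, 5% were high and 52.2% near background, but these include many genes without such a pseudogene. Of the 292 protein-coding genes with a pseudogene named after them, 41 were high and 80 near background. Whether the 17 parents differ from either set was not tested. Cox5b-ps had 13.17 ± 0.17 where Cox5b, a cytochrome oxidase subunit, had 5.74 ± 0.17. Mpc1-ps had 11.89 ± 0.04 where Mpc1 had 5.02 ± 0.29. Rpl9-ps6 had 12.83 ± 0.11 where Rpl9 had 2.52 ± 0.13.

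The cytosolic ribosome was split as a family. Of its 60 named protein genes, 7 were high, 31 middling and 22 near background, where the mitochondrial ribosome had 41 of 76 high and 2 near background. Among the 42 that share a name with at least 1 RefSeq pseudogene, 2 were high (4.76%) and 17 near background (40.5%). Among the 18 without, 5 were high and 5 near background (27.8% each). Over all protein-coding genes the order was the opposite: of the 292 with such a pseudogene, 41 were high and 80 near background (27.4%), and of the 19394 without, 1044 were high (5.38%) and 9073 near background (46.8%). Rpl3l, the striated muscle form of Rpl3, was high at 12.15 ± 0.07 (singled out after its value was seen). A transcript and its near-identical copies share sequence, so the signals of both are uncertain here, and the cause of the split was not tested. These counts were added after the data had been seen.

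Chaperones were high, with 13 of 19 in the top class and none near background. Hspa8, the constitutive HSP70, had 11.84 ± 0.21, the heat-inducible Hspa1a 11.70 ± 0.12 and the small heat shock protein Hspb1 11.49 ± 0.02. Dnajb1, a co-chaperone of HSP70, had 6.17 ± 0.13. Dnaja1 read 4.03, 4.98 and 5.02, lower on array 1 than on the others. Hsp90aa1, the inducible HSP90, stood at 3.61 ± 0.24. In the antioxidant list 10 of 22 were high, 10 middling and 2 near background. Prdx2 (11.63 ± 0.04), Sod1 (11.59 ± 0.26) and Sod2 (10.92 ± 0.05), which remove peroxide and superoxide, led it. Slc7a11, the cystine importer, had arrays on both sides of the border.

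Immediate early genes, which respond to stimulation within minutes, were middling as a group: none of 26 was high, 25 were middling and 1 near background. Nr4a1, an orphan nuclear receptor, read 7.82, 7.72 and 7.54. Zfp36, which destabilises cytokine mRNAs, had 7.56 ± 0.03 and Junb, an AP-1 factor, 7.29 ± 0.10. Fos read 5.18, 5.10 and 5.10, a narrow range at the 79.4 percentile. Egr3, at 3.10 ± 0.06, was the gene near background. Fosl1 and Nr4a2 had arrays on both sides of the border.

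Inflammatory genes ranged from high to background, with 2 of 27 high, 18 middling and 7 near background. Cxcl2, a neutrophil-attracting chemokine, read 9.04, 8.19 and 9.31, and Nfkbia, the feedback inhibitor of NF-kappa B, had 8.41 ± 0.26. Ccl5, a chemokine for lymphocytes and monocytes, had 8.13 ± 0.18. Ccl2, the monocyte chemoattractant, read 5.48, 5.97 and 6.66, a middling gene with a wide spread. Il6 read 4.10, 3.77 and 4.14 and was above the border on all 3 arrays. Il1a (3.01 ± 0.11), Saa3 (2.91 ± 0.11) and Saa1 (2.72 ± 0.07) were near background, and Tnfaip3, Lif and Il33 had arrays on both sides of the border. Of 22 interferon-stimulated genes 3 were high, led by the class I antigen-presentation genes H2-D1 (11.06 ± 0.29) and B2m (10.76 ± 0.38), while Mx1 (2.91 ± 0.14), Oas1a (2.93 ± 0.16) and Mx2 (2.99 ± 0.25) were near background.

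Adult myocytes hardly divide. Of 22 cell cycle genes, 3 were high, 10 middling and 9 near background. The high ones were Cdkn1a, the cell cycle inhibitor p21 (10.24 ± 0.14), Pcna, the replication clamp that also serves DNA repair (10.04 ± 0.19), and Ccnd2, cyclin D2 (9.40 ± 0.20). The share near background, 9 of 22, was no larger than that of all named genes (52.2%). The 3 lowest of the list were Top2a at 3.00 ± 0.06, Ccna2 at 2.93 ± 0.14 and Bub1 at 2.67 ± 0.04, which are known from dividing cells. In the proteolysis list, 8 of 15 were high and 7 middling, from Map1lc3b, the autophagosome protein LC3B (11.29 ± 0.13), and Psma1, a proteasome subunit (10.57 ± 0.19), down to the stress factors Foxo3 (4.76 ± 0.00343) and Foxo1 (4.43 ± 0.15). Cell death genes were middling in 9 of 10 cases, with Bnip3l at 7.17 ± 0.14 as the brightest and Bbc3, PUMA, near background at 3.12 ± 0.07. Of 14 clock genes, Nr1d1, the repressor REV-ERB alpha, was the high one at 8.52 ± 0.08, and Per3 was near background at 3.33 ± 0.03.

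**Figure D3:**
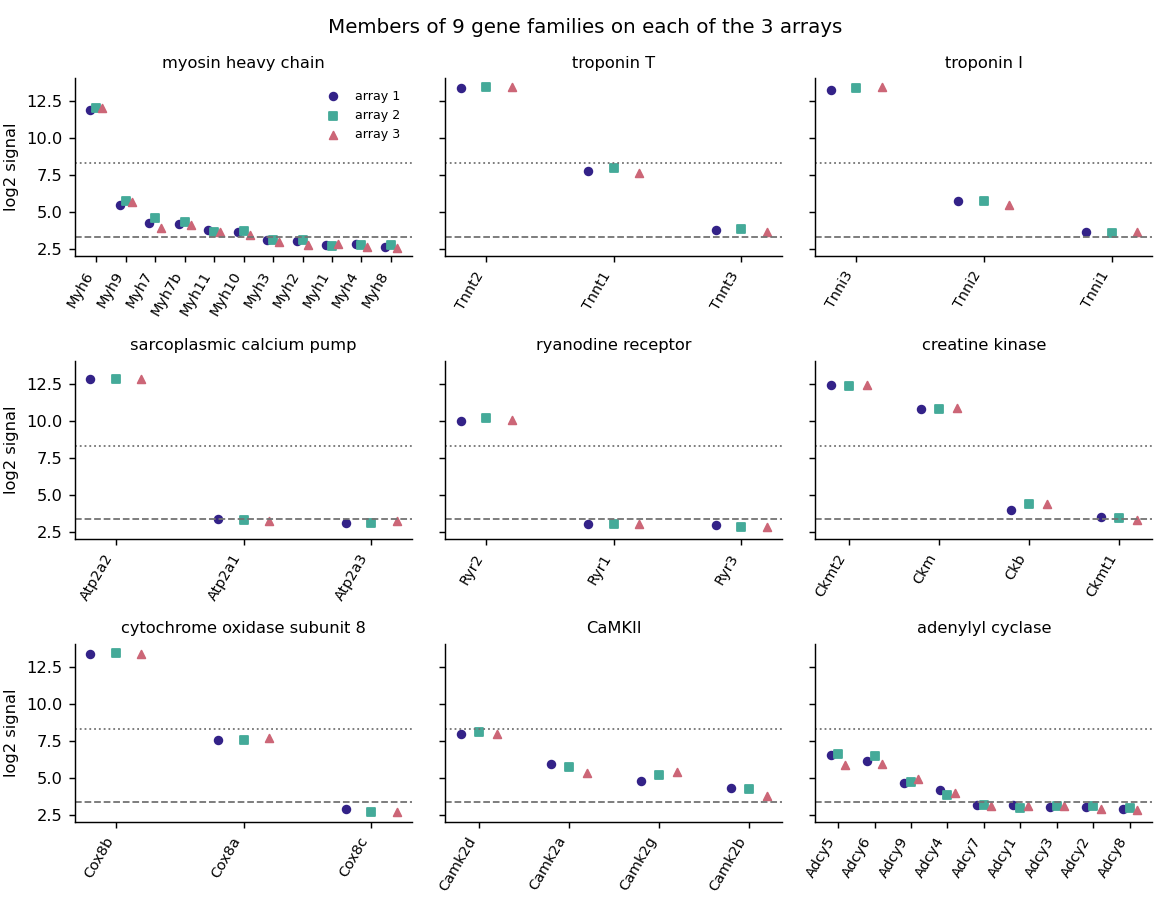
Each panel is a gene family, each gene has its log2 signal (y axis) on array 1 (circle), array 2 (square) and array 3 (triangle), and the lines are the border (dashed, 3.36) and the top 5% (dotted, 8.29). In the panels of myosin heavy chain, troponin T and I, calcium pump, ryanodine receptor and cytochrome oxidase 8, a single member is above the dotted line; no CaMKII or adenylyl cyclase gene is.

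Isoform families were examined because adult, fetal, atrial and skeletal forms of the same protein are the usual signature of a myocyte's state. Of 43 families with over 1 measured member, 21 had exactly 1 member in the high class, 8 had more than 1 and 14 had none. In the troponins, only the cardiac forms were high: Tnnt2, Tnni3 and Tnnc1. The slow skeletal Tnnt1 was middling at 7.78 ± 0.17, and Tnni1, which serves as the fetal troponin I of the heart, read 3.68, 3.63 and 3.69, low in the middling class. The fast skeletal Tnni2 (5.69 ± 0.16), Tnnc2 (4.69 ± 0.22) and Tnnt3 (3.78 ± 0.10) were middling.

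Among myosin-binding proteins C, the cardiac Mybpc3 was high at 10.04 ± 0.18, Mybpc2 was middling at 4.35 ± 0.13 and Mybpc1 near background at 2.95 ± 0.05. The skeletal myosin heavy chains Myh1, Myh2 and Myh4 and the developmental Myh3 and Myh8 were all near background, between 2.68 and 3.10. Of the calcium pumps, Atp2a2 was high, while Atp2a1 of fast skeletal muscle (3.32 ± 0.07) and Atp2a3 (3.16 ± 0.08) were near background. The ryanodine receptors were alike, with Ryr1 at 3.07 ± 0.02 and Ryr3 at 2.91 ± 0.07. Cardiac calsequestrin Casq2 was high at 10.96 ± 0.12, and skeletal Casq1 had arrays on both sides of the border.

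In metabolism, families with more than 1 high member included lactate dehydrogenase (Ldha 11.08 ± 0.08, Ldhb 10.26 ± 0.11), glycogen phosphorylase (Pygm and the brain form Pygb, 9.09 ± 0.15) and cytochrome oxidase 6a (Cox6a1 11.64 ± 0.08, Cox6a2 11.20 ± 0.25) and 7a (Cox7a1 and Cox7a2, the latter 12.54 ± 0.02). For cytochrome oxidase 8, the muscle form Cox8b was high at 13.37 ± 0.01 and the general form Cox8a middling at 7.61 ± 0.09. The phosphofructokinases Pfkm (8.14 ± 0.12), Pfkp (7.44 ± 0.26) and Pfkl (6.27 ± 0.14) were all middling. Fabp4, a fatty acid binding protein of endothelium and fat, was the high member measured in its family at 11.75 ± 0.16. The heart form Fabp3 was not analysed here.

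Several families had no high member or a single one among otherwise dim genes. All 4 tropomyosins were middling, Tpm1 at 7.20 ± 0.15, Tpm4 at 5.23 ± 0.37, Tpm2 at 5.11 ± 0.29 and Tpm3 at 3.94 ± 0.10. Actn2, the sarcomeric alpha-actinin, was high at 11.96 ± 0.04, with the non-muscle forms Actn4 (5.42 ± 0.11) and Actn1 (5.25 ± 0.14) middling and Actn3 of fast fibres near background (2.91 ± 0.15). Myoz2, the cardiac myozenin, was high at 12.49 ± 0.14. Of the hexokinases, Hk2, the insulin-responsive form of muscle, had 6.36 ± 0.09 and Hk1 3.75 ± 0.16. Cpt1a, the liver form of the enzyme that admits long-chain fatty acids to mitochondria, was middling at 6.01 ± 0.19, and the muscle form was not analysed here. Among estrogen-related receptors, which drive genes of oxidative metabolism, Esrra had 5.73 ± 0.06 and Esrrg 5.18 ± 0.20.

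In signalling families, Chrm2, the muscarinic receptor of the heart, read 6.85, 7.58 and 7.50, and the other 4 muscarinic receptors were near background. Cav3, the muscle caveolin, was high at 9.44 ± 0.08, with Cav1 at 6.13 ± 0.30 and Cav2 at 4.50 ± 0.13. The connexins of the atrium and conduction system were low, Gja5 at 3.18 ± 0.16 and Gjc1 at 3.27 ± 0.16. Of the sodium channel pores measured, all 6 were near background; the main cardiac form was not analysed here.

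**Figure D4:**
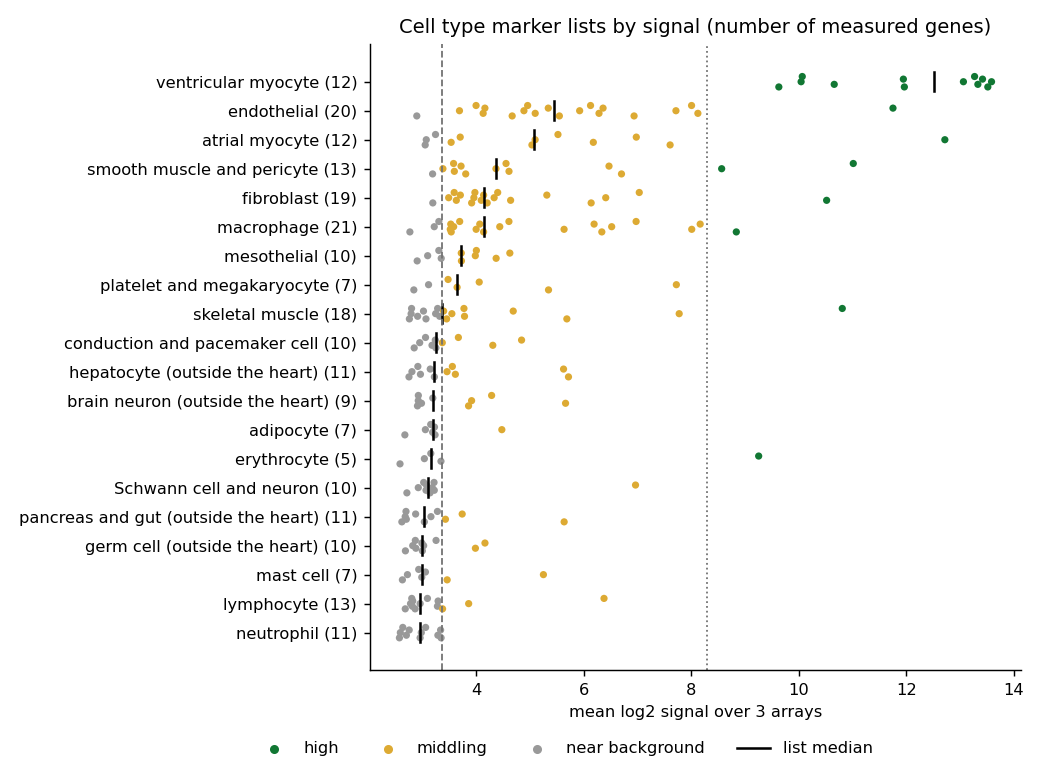
Each row is a cell type marker list with its number of measured genes, each point a gene at its mean log2 signal over the 3 arrays (x axis), coloured by class, with the list's median as a black bar, the border dashed (3.36) and the top 5% dotted (8.29). All 12 ventricular markers are high, and the endothelial, smooth muscle, fibroblast and macrophage lists lie mostly in the middling range with the border drawn there. The medians of the neutrophil and lymphocyte lists are below the border, though 3 of 13 lymphocyte markers are above it.

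The samples were also described by cell type marker lists. These were chosen with earlier results of these data known, so they give no independent check of the ventricular label. All 12 measured ventricular myocyte markers were high, from Pln at 9.63 to Myl2 at 13.59, with a median percentile of 99.7 and a median SD of 0.06. Most genes of this list belong to heart muscle in general, so the count does not tell ventricle from atrium. Of 12 atrial markers, 1 was high (Nppa), 8 were middling and 3 near background, the last being Fgf12 (3.25 ± 0.05), Sbk3 (3.07 ± 0.14) and Bmp10 (3.05 ± 0.04). Of 10 markers of conduction cells, none was high and 6 were near background, among them Tbx18, Cpne5 and Shox2. Skeletal muscle markers were near background in 9 of 18 cases, including Pvalb (2.79 ± 0.10) and Myh4 (2.76 ± 0.12), and the high member of that list, Ckm, is also a heart gene. The shares near background in the conduction and skeletal lists are not far from the 52.2% of all named genes, so these counts say nothing particular about either list.

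Markers of vessel and connective tissue cells were mostly above the border at 3.36, but this depends on where the border is set. With it at the 99th percentile of the receptor genes, 15 of 20 endothelial markers stayed above it, but 6 of 13 smooth muscle and pericyte markers in place of 12, and 7 of 19 fibroblast markers in place of 18. The higher border lowered the counts of all genes. Of all 24704 named genes, 12897 were near background at 3.36 and 18033 at the higher border. In the endothelial list 1 of 20 was high, 18 were middling and 1 near background. The high one was Fabp4, also a gene of fat, at 11.75. Cdh5, VE-cadherin, read 7.76, 8.04 and 8.57, and Pecam1, CD31, read 7.78, 7.95 and 8.29, both highest on array 3. Ly6c1 was near background at 2.90 ± 0.12. Smooth muscle and pericyte markers were high in 2 of 13 cases, Des (11.02 ± 0.19), which myocytes also express, and Acta2 (8.57 ± 0.06). The more restricted Lmod1 (3.19 ± 0.08) and Pdgfrb (3.38 ± 0.07) were at the border. Among 19 fibroblast markers, Dcn, the proteoglycan decorin, was high at 10.52 ± 0.20 and Dpt, dermatopontin, had 7.04 ± 0.11. Thy1 (3.59 ± 0.25), Pdgfra (3.49 ± 0.36) and Tcf21 (3.20 ± 0.10) were lowest, and no collagen gene of 44 was high.

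Macrophage markers were above the border in 18 of 21 cases, and in 10 with the border at that higher percentile, where 18033 of 24704 named genes were near background. Pf4, a chemokine of macrophages and platelets, was high at 8.84 ± 0.20, and the class II antigen-presentation genes H2-Ab1 and Cd74 had 8.17 ± 0.14 and 8.01 ± 0.22. Ptprc, CD45, which all white blood cells carry, was near background at 3.22 ± 0.07, as were Itgam (3.31 ± 0.16) and Ccr2 (2.77 ± 0.07). All 11 neutrophil markers were near background, including S100a8 (2.59 ± 0.13) and Ly6g (2.64 ± 0.17). Of 13 lymphocyte markers 10 were near background, but Trbc2, a T cell receptor constant region, had 6.38 ± 0.24. The markers Adgre1, Lyz1 and Fcgr1 of macrophages, Robo4 of endothelium and Mpo, Ngp and Elane of neutrophils had arrays on both sides of the border. Adipocyte markers were near background in 6 of 7 cases, with Adipoq at 2.68 ± 0.03, and Schwann cell and neuron markers in 9 of 10. At the border used for the classes, 47.8% of all named genes lay above it and 52.2% near background. The marker counts alone therefore do not show whether a cell type was present or absent.

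Blood cell genes did not move as a block. Hbb-bt, a beta globin, had 9.26 ± 0.58 and was highest on array 3, at 9.92, while Hbb-bs, its near-identical neighbour, had 2.59 ± 0.05 and the other 3 red cell markers were near background. Signals of the globin copies are uncertain for the same reason as those of the ribosomal proteins. Ppbp, a platelet chemokine, had 7.72 ± 0.18 and Gp9, a platelet receptor, 5.35 ± 0.04. Of 5 measured Y-linked and X-inactivation genes, 3 were middling and 2 near background. The Y-linked genes Uty (5.43, 5.47 and 5.42) and Eif2s3y (4.81, 5.35 and 4.71) were above the border on all 3 arrays, while Kdm5d (3.42, 3.75 and 3.20) had arrays on both sides of it. Xist, the X-inactivation RNA, and Tsix, its antisense RNA, were near background on all 3 at 3.01 ± 0.06 and 2.81 ± 0.02.

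**Figure D5:**
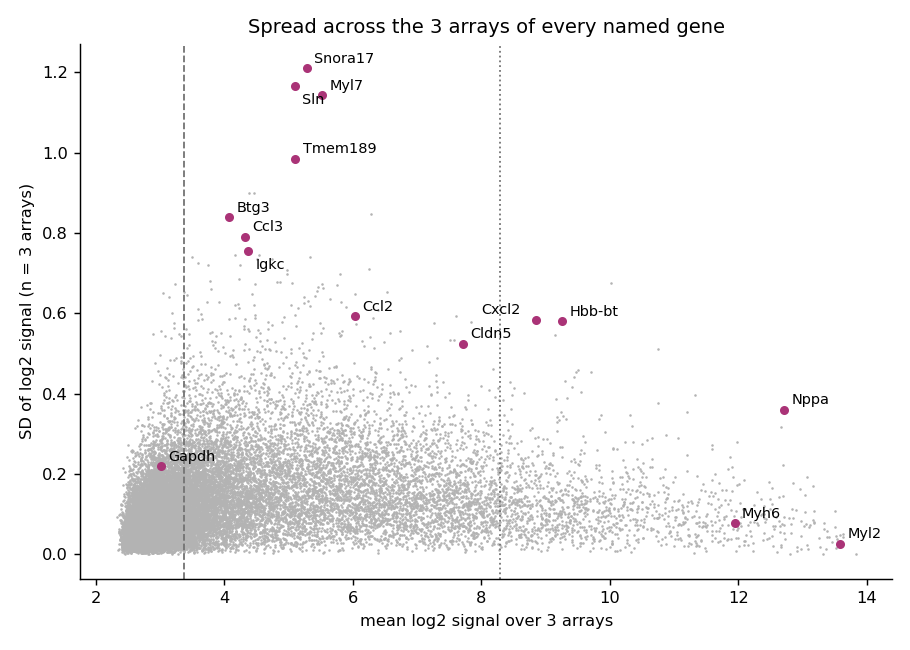
Each grey point is a named gene with its mean log2 signal over the 3 arrays (x axis) and the SD of that signal (y axis, n = 3), with the border dashed (3.36) and the top 5% dotted (8.29). The labelled atrial genes Sln and Myl7 have SDs above 1, as has the small nucleolar RNA gene Snora17. Those of Myl2 and Myh6, from the ventricular list, are below 0.1.

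The 3 arrays put the genes in nearly the same order of signal. Pearson's r across 25428 probe sets, which are not independent replicates, was 0.994 between arrays 1 and 2, 0.992 between arrays 1 and 3 and 0.993 between arrays 2 and 3. Spearman's rank correlation was 0.973, 0.964 and 0.964 for the same pairs. Such values mostly reflect differences between genes, so they do not measure how alike the mice were. The border, taken per array, was passed by 10552 genes, 42.7%, on all 3 arrays, by 1009 on 2, by 1355 on 1 and by 11788 on none. The median SD was 0.108 in the high class, 0.144 in the middling class and 0.083 near background. Of the 11807 genes above the border, 153 had an SD over 0.5.

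Of the 10 genes with the largest SD, 4 were highest on array 2 and lowest on array 3, and 2 of these 4 are atrial markers. Sln, sarcolipin, the atrial brake on the calcium pump, read 5.04, 6.29 and 3.96. Myl7, the atrial regulatory light chain, read 5.74, 6.54 and 4.29. Their SDs were 1.17 and 1.14. Snora17, a small nucleolar RNA gene with the largest SD of all 10 (1.21), read 5.23, 6.52 and 4.11, and Tmem189, a membrane protein gene, read 5.43, 5.88 and 4.00, so genes that are no atrial markers had the same order and a like spread. Myl4, the atrial essential light chain, had the same order with a smaller spread, 5.11, 5.29 and 4.71. Nppa had another order, highest on array 1, and the atrial markers Fgf12 and Bmp10, near background, had SDs of 0.05 and 0.04. In the atrial list 5 of 12 genes (41.7%) were highest on array 2, against 30.5% of all named genes, and its median SD was 0.22 against 0.14 for all genes above the border. Whether the mice differed in atrial tissue left on the ventricle was not tested.

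The remaining 6 of the 10 had other orders. Cldn34c2 (5.00, 4.95 and 3.42) was also lowest on array 3. Slc7a5, an amino acid transporter (3.57, 4.09 and 5.25), Btg3, an antiproliferative gene (3.60, 3.58 and 5.04), Ccl3, a macrophage chemokine (3.72, 4.02 and 5.21), and Igkc, the immunoglobulin kappa constant region (3.71, 4.22 and 5.19), were highest on array 3. Rpl35a read 3.35, 5.02 and 4.77, with array 1 at background.

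Some lists leaned to an array. The endothelial list had 13 of 20 genes highest on array 3, or 65.0%, against 34.9% of all named genes, and its median deviation from the gene means was 0.098 on array 3 and -0.133 on array 2. The list of inflammatory genes had 16 of 27 highest on array 3, with a median deviation of 0.105 there, and the macrophage list 11 of 21. Fibroblast markers were highest on array 3 in 10 of 19 cases and on array 2 in 1. The thick filament list went the other way, with 10 of 13 genes highest on array 2 (76.9%, against 30.5% of all named genes) and a median deviation of 0.102. The hepatocyte list, from outside the heart, leaned to array 2 about as much, with 8 of 11 genes (72.7%). These shifts were not tested, as the 3 arrays form 1 group.

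Non-coding genes were mostly near background, with 79.0% of 3055 long non-coding RNA genes and 79.4% of 534 microRNA genes there. Malat1, a nuclear RNA found in most cells, was high, reading 10.49, 10.90 and 10.36, and Neat1, the scaffold of paraspeckles, was middling at 6.16 ± 0.41. Rn7sk, the abundant 7SK RNA that restrains transcription elongation, ranked 32 at 13.05 ± 0.10. Mhrt, a long RNA transcribed antisense to Myh7, was high at 9.07 ± 0.06, although Myh7 itself was low, and overlapping transcripts on opposite strands may not be told apart. Rn7sk and Mhrt were singled out after their values were seen.

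The heart's own microRNAs, which are cut from introns of myosin genes, are shown because their genes and hosts read differently. Mature sequences are given 5′ to 3′ from RefSeq (GRCm38.p6) with the seed, bases 2 to 8, in capitals. Mir208a lies within Myh6 (chr14:54949072-54949093, minus strand), Mir208b within Myh7 (chr14:54975710-54975731, minus strand) and Mir499 within Myh7b (chr2:155622893-155622913, plus strand).
miR-208a-3p: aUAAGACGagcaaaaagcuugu
miR-208b-3p: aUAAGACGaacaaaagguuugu
miR-499-5p: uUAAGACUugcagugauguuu

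The miR-208 pair shares its seed, and that of miR-499 is not identical to it. Mir208a had 2.54 ± 0.05 while its host Myh6 was high at 11.95 ± 0.08. Mir208b had 2.43 ± 0.06 and Mir499 2.56 ± 0.07. The muscle genes Mir1a-1 (2.46 ± 0.04), Mir133a-2 (2.63 ± 0.07) and Mir206 (2.40 ± 0.03) were near background as well, at the level of Mir122 of the liver (2.62 ± 0.01). Of the microRNA genes chosen, which were picked after their values had been seen, Mir486 alone was middling, at 3.83 ± 0.19. Which transcript, precursor or mature form, these probe sets detect the sources used here do not say, so the values do not measure mature microRNAs.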

How the data were processed

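Total RNA of cultured ventricular myocytes was measured on Affymetrix arrays. The authors summarised the arrays with RMA, per the submitters' processing notes, and deposited log2 signals of 25428 probe sets. The sources used here name neither the array type nor the version of RMA nor an annotation build. The 3 arrays share 1 set of sorted values, so they were already quantile normalised, and were used as they are. GEO's platform annotation gave 1 symbol for 24705 probe sets and none for 723, which were not ranked. The brighter probe set was kept for 1 symbol with 2. Biotypes and promoters came from RefSeq tables (GRCm38.p6). Means, SDs (n = 3), ranks and classes were computed with Python 3.11.15 and pandas 2.3.3, and the code was tested on simulated data. The number of arrays limits the precision. A single group was described, so no test was run.

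The gene lists (29 functions, 20 cell types and 45 isoform families) and the border were chosen with earlier results of these data known. Named genes were drawn from the 30 brightest, the 10 with the largest SD above the border on at least 1 array, measured isoform list members, up to 6 members per list (the 3 highest and the 3 lowest), members with arrays on both sides of the border, and 19 genes set by name; predicted genes were counted, not named. Alternatives changed the centring, normalisation, summary, border, class limit, probe set rule and gene set, and left out each array in turn. Counts by gene family, pseudogene and microRNA were added after the data had been seen.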

Additional observations from a re-analysis of the deposited data

Results flagged for a closer look

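Probe sets without a gene symbol carried signal outside the ranking. Of 723 such probe sets, 389, or 53.8%, had a mean above the border, and 41 were as bright as the top 5% of named genes. They were not analysed further here. No group held enough arrays for a search for single outlying samples.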

How the results depend on the processing

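Across 12 alternative settings, 15 counts and spreads and 13 gene percentiles were recomputed, 336 values in all. Of these, 315 stayed within 1.5 times the reported count or within 1 SD of the percentile over arrays. Many of them were fixed in advance, so the number 315 does not measure robustness. The arrays share 1 set of values, so median centring and quantile normalisation changed next to nothing. A percentile does not depend on the border or the class limit, and the high class is a set share of the genes. With the border at the 99th percentile of the receptor genes, 5435 genes were middling, 6157 were above the border on every array and 983 on some arrays. The markers above it were then 7 for fibroblasts, 10 for macrophages, 4 for skeletal muscle, 6 for smooth muscle and pericytes, 1 for neutrophils and lymphocytes and 4 for tissues outside the heart. Neutrophil and lymphocyte markers above the border numbered 3 as reported, 6 with the median over the arrays, 9 with the border at the 90th percentile of the receptor genes and 5 with the border at the median of all named genes. A high class of the top 10% held 2471 genes. Leaving out each array in turn gave 1384 to 1678 genes above the border on only some arrays, against 2364 with all 3, as fewer arrays leave fewer ways to disagree. All 12 ventricular markers stayed high under every setting run. The remaining moved values were 7 percentiles after predicted and small non-coding RNA genes were left out, by construction, as fewer genes were ranked. No paired analysis was possible because only 1 group was described. With 3 arrays, and signals near the border, the class of dim genes is the least certain.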
